A study of Mus musculus with 860 samples.

Results

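The genes described here encode the proteins of the cytosolic ribosome. They were chosen by symbol: protein-coding genes named Rpl or Rps followed by digits and at most 1 letter a, l or x, together with Rplp0, Rplp1, Rplp2 and Rpsa. This rule took 80 of the 46078 genes in the count table, 49 of the large (60S) and 31 of the small (40S) subunit. Pseudogenes and the S6 kinase genes were left out, and the rule used no measured value. The counts came from single cells of the mouse embryonic aorta-gonad-mesonephros region (AGM), sorted from embryos of the CD1 background carrying the Gfi1:tomato reporter (strain label CD1/Gf1+) at E10.5 or E11.5. No agent was given to the embryos, every sorted group carried the reporter line, and the cells were stained with antibodies for sorting. GFI1+ HE cells (CD31+cKIT-) are the haemogenic endothelium, GFI1+ IAHC cells (CD31+cKIT+) are the intra-aortic haematopoietic clusters that hold the stem cells, and GFI1- IAHC cells are cluster cells without the reporter. Of the 775 analysed cells, HE at E10.5 made up 14.1%, GFI1+ IAHC at E10.5 14.97%, HE at E11.5 22.2%, GFI1+ IAHC at E11.5 30.97% and GFI1- IAHC at E11.5 17.4%, and GFI1- IAHC at E10.5 had 3 cells, too few for any comparison. The gates rest on the reporter and 2 surface proteins and the AGMs of several embryos were pooled, so a group can hold more than 1 cell type and cells of different embryos.

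The ribosome joins amino acids in the order the messenger RNA gives. Its proteins are made in the cytoplasm, carried into the nucleolus, assembled on ribosomal RNA and exported as subunits, and growing cells make them in about equal amounts. Their messenger RNAs begin with a run of pyrimidines, the 5′ TOP motif, through which mTOR controls their translation, while MYC raises the transcription of the genes and of the factors that assemble ribosomes. Blood formation is sensitive to the supply of these proteins: loss of 1 copy of RPS19, RPL5 or RPL11 causes Diamond-Blackfan anaemia in people.

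Every deposited sample is a single cell and the labels name no animal, so each group stands for 1 sample and nothing below carries a test or a p-value. Of 860 sequenced cells, the authors' annotation kept 775, which held 580738406 counts. Median depth was 554400 to 1027000 counts per cell in the sets of 1 group in 1 batch that had 10 or more kept cells, 12 in all. Cells came from 4 batches named GL53, GL58, GL69 and GL78. Endothelial markers (Pecam1, Cdh5, Kdr, Tie1, Emcn) summed to 3011 to 6505 CPM (counts per 1000000) in HE and 1988 to 4571 CPM in GFI1+ IAHC. Haematopoietic markers (Ptprc, Spn, Runx1, Myb, Itga2b, Gfi1) summed to 46.3 to 767 CPM in HE and 68.2 to 234.7 CPM in GFI1+ IAHC. Within batches this sum had no common direction. At E11.5 it was higher in GFI1+ IAHC in GL53 and nearly equal in GL58. In GL78 it was higher in HE at both stages. The HE values of 403 and 767 CPM were in batch GL78, which also held most cells of cluster 9, rich in megakaryocyte genes, described below. Itga2b alone gave 346.8 and 687.2 CPM of these 403 and 767 CPM, and it stood at 6542 CPM in cluster 9.

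The 80 genes lay on 19 chromosomes, 4 of them on X, and their main transcripts had a median length of 843 bases and reached 5179. Ribosomal protein genes have many processed copies in the genome, and reads that fit a copy as well as the parent cannot be assigned with certainty. In 76 of the 80 genes at least 1 stretch of 75 bases, the read length, also occurred in a transcript of another gene, and in 35 of them more than 50% of such stretches did (median 43.1%). Rps27, a zinc-finger protein of the small subunit, had 98.5% of its stretches in common with the retrogene Rps27rt. Rpl4 and Rps3, by contrast, had 8.47% and 0%.

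RefSeq promoters (GRCm38.p6) were found for 60 of the 80 genes. A run of 8 or more pyrimidines on the sense strand within 50 bases of the start was present in 51 of the 60 (85%), against 39.3% of all 27025 genes in the same table. The genes shown here, all named in the results below, were picked because they display long and short examples of the pyrimidine run that these messages are known for. Each window is 30 bases long, centred on the RefSeq start, and capitals mark its longest unbroken run of C and T.
Rps27, chr3:90213634-90213663, minus strand: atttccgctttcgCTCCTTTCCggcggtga
Rpl35, chr2:39005117-39005146, minus strand: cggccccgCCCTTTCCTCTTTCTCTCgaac
Rpl38, chr11:114668565-114668594, plus strand: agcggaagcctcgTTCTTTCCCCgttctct
Rpl12, chr2:32961697-32961726, plus strand: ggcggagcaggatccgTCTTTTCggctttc
Rpsa, chr9:120127751-120127780, plus strand: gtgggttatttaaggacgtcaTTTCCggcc
Rpl10l, chr12:66284387-66284416, minus strand: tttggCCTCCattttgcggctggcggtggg
The run was 18 bases long in Rpl35, 10 in Rpl38, 9 in Rps27, 7 in Rpl12 and 5 in both Rpsa and Rpl10l. In Rpl10, which is not shown, it was 3 bases long. Over the 300 bases from 250 before to 50 after the start, searched on both strands, CCGGAAG (the core bound by ETS factors of the GABP kind) occurred in 41.7% of the 60 genes and 9.93% of all genes. GGGCGG, the GC box, occurred in 60% against 38.2%. CACGTG, the E-box that MYC binds, was near the general share (10% against 8.09%), TATAAA was at 10% against 15.7%, and AAGATGGCG, the YY1 motif, at 5% against 1.64%.

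The 80 genes took 37742155 counts, 6.50% of all counts of the kept cells (95% exact binomial interval 6.50 to 6.50%; this and every interval below covers counting error only). The share ranged from 0.978 to 16.6% between cells, with a median of 5.63%. Within the 12 sets, the coefficient of variation between cells was 12.5 to 39.2%, while counting alone gave each share an SD of only 0.0223 to 0.0334 percentage points. Spread between cells was therefore far above counting error. Large-subunit genes took 1.16 to 1.32 times the share of small-subunit genes in every set.

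Levels between genes were compared per kilobase of transcript. The median was 816 CPM per kilobase, and among the highest were Rpl32 (3009), Rpl41, which encodes the smallest ribosomal protein (2600), Rps27 (2541) and Rps14 (2294). At the low end were the tissue-restricted copies Rpl3l (0.159), Rpl10l (1.62) and Rpl39l (9.93), along with Rpl24 (4.55) and Rpl23a (65.98). Of Rpl24's exon bases, 71.5% overlapped another gene on the same strand, and 81.7% of Rpl23a's 75-base stretches occurred in another gene. The part of this in their level was not tested. Across the 75 genes with 50 CPM or more, shared percent and level per kilobase had a Spearman rho of 0.01. Rpl24 and Rpl23a lie below that limit, so the value does not cover them. By counts, without regard to length, Rpl4, whose protein reaches into the exit tunnel, took the most in all 12 sets, 2.95 to 6.17% of the counts of the 80 genes. The rank order of the 80 genes was alike in any pair of sets (Spearman rho 0.891 to 0.994 across genes, a description, since genes are not replicates).

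Batch moved the summed share more than population or stage did. In HE at E11.5 the genes took 4.10% of counts in GL53 (more than 100 cells, interval 4.09 to 4.10%), 4.49% in GL58 (19 cells, 4.48 to 4.5%) and 7.28% in GL78 (40 cells, 7.27 to 7.29%). The same batches gave 4.66% (more than 100 cells, 4.66 to 4.67%), 4.85% (30 cells, 4.84 to 4.86%) and 8.34% (89 cells, 8.34 to 8.35%) in GFI1+ IAHC at E11.5. GL78 was highest in each, and GL53 and GL58 lay close together. In GFI1- IAHC at E11.5 the share was 3.70% in GL53 (91 cells, 3.70 to 3.71%) and 7.09% in GL78 (44 cells, 7.08 to 7.10%). At E10.5, HE had 5.26% in GL58 (18 cells, 5.25 to 5.27%) and 8.55% in GL78 (91 cells, 8.55 to 8.56%), and GFI1+ IAHC had 7.11% in GL69 (29 cells, 7.10 to 7.12%) and 9.72% in GL78 (87 cells, 9.71 to 9.72%). The share in GL78 was 1.78, 1.79 and 1.92 times that in GL53 in the 3 groups of E11.5, 1.63 times that in GL58 in HE at E10.5 and 1.37 times that in GL69. GL58 over GL53 was 1.10 in HE and 1.04 in GFI1+ IAHC.

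**Figure D1:**
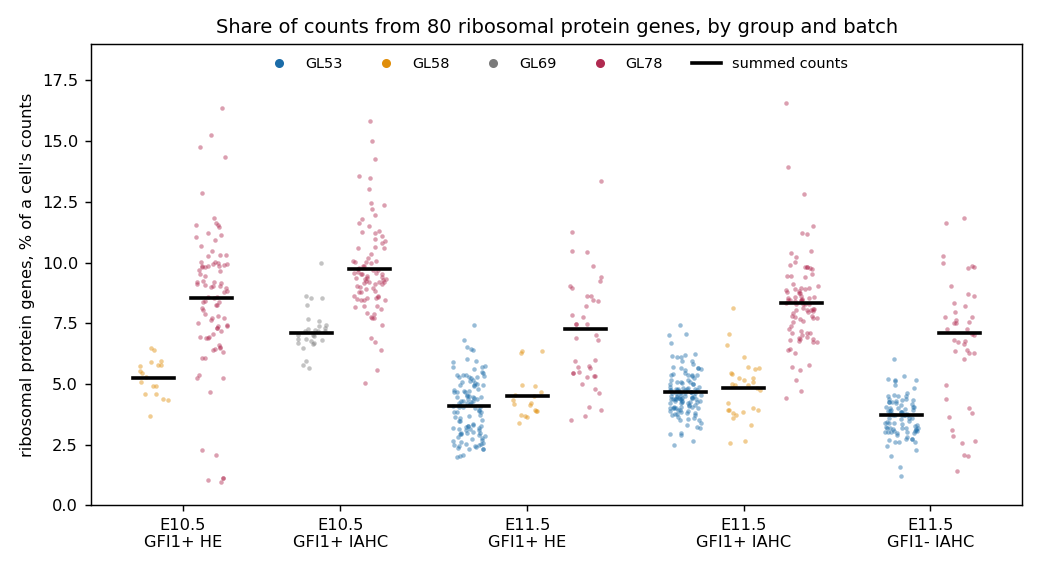
Share of a cell's counts that came from the 80 ribosomal protein genes (y axis, percent) by population and stage (x axis), with 1 point per cell coloured by batch and a black bar for the summed counts of each group and batch. Within each group the GL78 bar is the highest, and the GL78 bars run from 7.09 to 9.72%, against 3.70 to 7.11% in the other batches.

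The difference of GL78 from the other batches was not even over the genes. In GFI1+ IAHC at E11.5, GL78 over GL53 gave a median log2 ratio of 1.09 over the 77 genes with 10 CPM or more, above 0 in 73, beside -0.13 over all 10055 genes. Rps29, a zinc-binding small-subunit protein, had a log2 ratio of 1.87 in HE, 1.95 in GFI1+ IAHC and 2.28 in GFI1- IAHC. Rpl13 (1.84, 1.82 and 1.95) and Rpl35 (1.71, 1.64 and 2.03), both of the large subunit, were high as well. Other genes of the same ribosome hardly differed: Rpl4 was at -0.08, -0.05 and 0.09, and Rps3, which lies at the messenger RNA entry site, at 0.16, 0.10 and 0.25. The share of a gene's sequence that also occurs in another gene moved with this ratio. Across genes, Spearman's rho between this share and the ratio was 0.52 to 0.61 in the 7 ratios that had GL78 on top, and 0.05 and -0.08 in the 2 ratios of GL58 over GL53. With transcript length rho was between -0.13 and 0.07 in all 9. Genes with less than 10% of their stretches in another gene had a median log2 ratio of 0.08 to 0.39 with GL78 on top (10 to 12 genes), and those with more than 50% had 0.62 to 1.28 (34 genes). Exceptions ran both ways. Rpl39 had 7.62% and a ratio of 0.93 in GFI1+ IAHC, and Rps15a 4.13% and 0.75, while Rpl26, Rpl35a and Rpl7 were at 0.14, 0.23 and 0.42. The part of read assignment in the batch ratio was not tested.

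**Figure D2:**
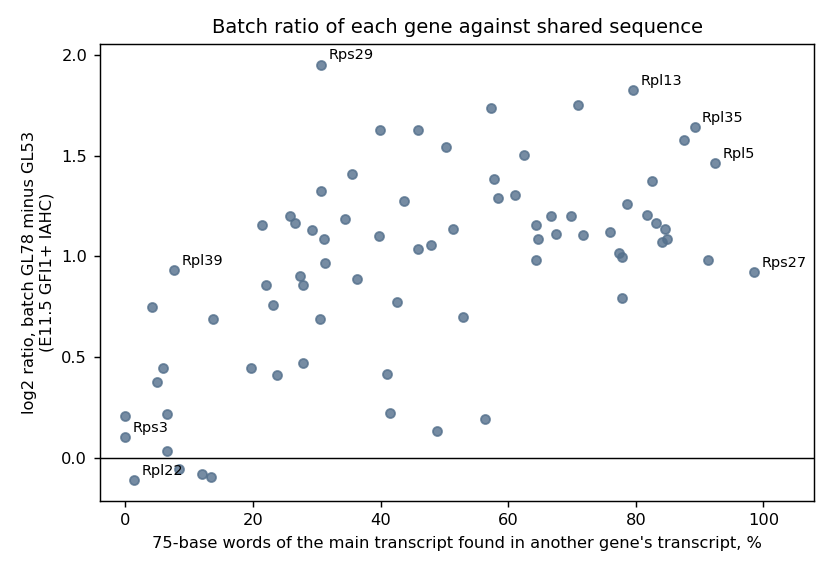
For each gene in GFI1+ IAHC at E11.5, the log2 ratio of its CPM in batch GL78 over GL53 (y axis) against the percent of 75-base stretches of its main transcript that occur in another gene's transcript (x axis), with 1 point per gene. Among the genes at the left, Rps3 and Rpl22 lie near 0 but Rps15a (0.75) and Rpl39 (0.93) do not. The genes with more than 50% have a median of 1.16. Genes under 10 CPM over all kept cells, Rpl39l among them, are not shown.

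For that reason the comparisons of population, stage, phase and clusters 2 and 4 were made within a batch and then averaged over batches with equal weight. The summed value of each is also given for the 13 genes with less than 10% of their stretches in another gene, a set chosen after the batch ratios had been seen. Those 13 genes took 0.947, 1.05 and 1.12% of counts in HE at E11.5 in GL53, GL58 and GL78, and 1.09, 1.13 and 1.27% in GFI1+ IAHC. For single genes, a gene entered where it had 10 CPM or more in the higher group, 1 CPM was added before taking log2, and a gene was counted as higher or lower only if each batch showed a log2 ratio of 0.32 or more to that side. The comparisons share cells (the HE of E11.5 stands in 2 of them and the GFI1+ IAHC of E11.5 in 3), so their directions are not independent of each other. In summed counts, more cells of a kind and more RNA per cell cannot be told apart.

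HE had a lower ribosomal protein share than GFI1+ IAHC at both stages. At E11.5 the summed log2 ratio, HE minus GFI1+ IAHC, was -0.19 in GL53, -0.11 in GL58 and -0.20 in GL78, a mean of -0.16 ± 0.05 (SD, n = 3 batches), or 0.892-fold. The 13 genes with little shared sequence gave -0.16. All 3 batches lay on the same side of 0, by more than their spread. At E10.5 only GL78 held both groups, and there the ratio was -0.18, or 0.880-fold, and -0.21 over the 13 genes. In G1 cells alone the ratio was -0.26 at E11.5 and -0.40 at E10.5. Of the 77 genes that passed the filter at E11.5, 62 were below 0 in every batch and only Rpl41 was above 0 in every batch. Their median was -0.18, beside -0.08 over all 9923 genes tested.

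Few single genes passed the limit of 0.32. At E11.5, 0 were higher in HE (4.79% of all genes tested) and 2 were lower (5.95% of all genes tested), a share of the ribosomal protein genes below that of all genes in both directions. Of the 2, Rpl12, which forms the base of the stalk of the large subunit, had 272.1, 299.6 and 504 CPM in HE in GL53, GL58 and GL78, and its log2 ratio to GFI1+ IAHC was -0.33, -0.34 and -0.50. HE was the lower in each batch, with a mean of -0.39 ± 0.10. With edgeR's TMM factors its ratios were -0.28, -0.29 and -0.43, so that Rpl12 did not pass the limit and 1 gene was left. The other was Rpl39l, described with the paralogs below. Rpl21 and Rpl18, of the large subunit, were both at -0.30. At the other end were Rps27 (0.06 ± 0.15) and Rpl41 (0.05 ± 0.03), then Rpl38, Rpl35 and Rpl37a between -0.04 and -0.01. At E10.5, 0 of 76 genes were higher (22.8% of all genes) and 1 was lower (20.4% of all genes). It was Rps12, of the small subunit, at 691 CPM in HE and 886 CPM in GFI1+ IAHC, a log2 ratio of -0.36. Near it were Rpl8 and Rpl3 (both -0.32), while Rps27 (0.06) and Rps29 (0.05) were at the top. Of the 76 genes 73 were below 0, with a median of -0.18 beside -0.02 over all 9577 genes.

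The cluster makeup of the groups moved with this difference. Cluster 4 of the authors' annotation, which had the lowest share of the clusters compared in GL53 and the second lowest in GL78, made up 24.8% of HE at E10.5 and 24.4% at E11.5, against 1.72% and 0.833% of GFI1+ IAHC. Without cluster 4 the ratio was -0.09 at E11.5 and -0.12 at E10.5. Without cluster 8, which held no HE cell at E11.5, it was -0.11 at E11.5. Cluster 9 held 9 of the 91 HE cells of GL78 at E10.5 and no GFI1+ IAHC cell, and without it the ratio at E10.5 was -0.12. Within clusters, in the batches with 10 or more cells of both groups, HE minus GFI1+ IAHC was 0.08 in cluster 0 of GL78, -0.11 in cluster 1 of GL53 and 0.23 in cluster 3 of GL53 at E11.5, and 0.07 in cluster 3 of GL78 at E10.5. The difference thus had no single sign within clusters.

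GFI1+ IAHC had a higher share than GFI1- IAHC at E11.5. The summed log2 ratio was 0.33 in GL53 and 0.23 in GL78, a mean of 0.28 ± 0.07 (n = 2 batches), or 1.22-fold, and 0.26 over the 13 genes with little shared sequence. Of the 77 genes that passed the filter, 76 were higher in GFI1+ IAHC in both batches, the exception being Rpl8, at 1021 against 909 CPM in GL53 and 1328 against 1345 CPM in GL78. Their median was 0.31, beside -0.02 over all 10345 genes. In all, 13 genes passed the limit as higher (5.42% of all genes, against 16.9% of the 77) and 0 were lower (8.93% of all genes). With TMM factors 45 passed as higher (8.735% of all genes), all 13 among them.

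Rps24, a small-subunit protein also affected in Diamond-Blackfan anaemia, led among the widely used genes, with 817 and 560 CPM in GFI1+ and GFI1- IAHC in GL53 and 1319 and 942 CPM in GL78, a log2 ratio of 0.51 ± 0.04. Rps21 (0.46 ± 0.23) and Rps29 (0.45 ± 0.23) spread more between the 2 batches. Rpl39, which lines the exit tunnel, was at 0.44 ± 0.14, and Rps19 at 0.33 ± 0.01. Lowest were Rpl8 (0.07 ± 0.13), Rpl7 and Rpl4 (both 0.14), Rpl10 (0.15) and Rpl10a (0.16). Clusters 6 to 10 made up 42.96% of GFI1- IAHC and 12.9% of GFI1+ IAHC at E11.5, and without them the summed ratio was 0.20. Mesenchymal markers summed to 1982 and 38.2 CPM in GFI1- IAHC in GL53 and GL78, against 48.4 and 27.3 CPM in GFI1+ IAHC, and macrophage markers to 247.6 and 536.9 CPM, against 21.9 and 121.5 CPM. Their part in the result was not tested. Within cluster 0 it was 0.12 in GL53 and 0.07 in GL78, and within cluster 3 of GL53 it was 0.12.

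The share was lower at E11.5 than at E10.5 in HE and in GFI1+ IAHC. In HE, E11.5 minus E10.5 was -0.23 in GL58 and -0.23 in GL78, a mean of -0.23 ± 0.0037 (n = 2 batches), or 0.852-fold, and in GFI1+ IAHC it was -0.22 in GL78, the only batch with both stages, or 0.859-fold. Over the 13 genes with little shared sequence the values were -0.19 and -0.23. The median over genes was -0.26 in HE (69 of 76 below 0 in both batches) beside -0.01 over all 9808 genes, and -0.24 in GFI1+ IAHC (72 of 77 below 0) beside 0.07 over all 9797. Lower past the limit were 22 of 76 genes in HE (12.1% of all genes) and 24 of 77 in GFI1+ IAHC (20.9% of all genes), where TMM factors gave 38 (26.6% of all genes), all 24 among them. Higher were 0 in HE (13.5% of all genes) and 2 in GFI1+ IAHC (32.3% of all genes), Rpl29 and Rpl39l.

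Rpl34, of the large subunit, had the lowest ratio in both. In HE it had 635 CPM at E10.5 and 316.6 CPM at E11.5 in GL58 and 904 and 531 CPM in GL78, a log2 ratio of -0.88 ± 0.17, and in GFI1+ IAHC it went from 948 to 567 CPM, a ratio of -0.74. Rps21 was at -0.79 ± 0.04 in HE and -0.65 in GFI1+ IAHC. Rpl38, whose loss in mice impairs the translation of Hox messages, was at -0.53 ± 0.03 and -0.68. Rpl35a was at -0.63 ± 0.06 in HE and -0.57 in GFI1+ IAHC, Rps29 at -0.56 ± 0.03 and -0.38, Rps27l at -0.52 ± 0.14 and -0.64, and Rpl26 at -0.40 ± 0.14 and -0.60. Apart from this stood Rpl29, at 154.3 CPM at E10.5 and 146.9 CPM at E11.5 in HE of GL58, 338.6 and 456.2 CPM in HE of GL78, and 390 and 562 CPM in GFI1+ IAHC. Its direction in HE differed between the batches (0.18 ± 0.35), and 57.4% of its stretches occurred in another gene, most of them in Uimc1. Rps2, Rpsa and Rps27 had means between 0.00 and 0.16 in both populations. In HE, however, each of them was lower at E11.5 in GL58 and higher in GL78. Rps2 had 867 CPM at E10.5 and 817 CPM at E11.5 in GL58, and 1398 and 1724 CPM in GL78. Shorter transcripts had somewhat lower ratios: across genes, Spearman's rho of the ratio with transcript length was 0.40 in HE and 0.40 in GFI1+ IAHC, and the genes below the median length had a median of -0.30 and -0.29, against -0.22 and -0.22 above it. In G1 cells alone the ratio was -0.11 in HE, where GL78 alone had enough cells, and -0.23 in GFI1+ IAHC. Within GFI1+ IAHC of GL78 it was -0.17 in cluster 0 and -0.09 in cluster 2.

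The authors' annotation sorted the kept cells into 11 Louvain clusters, numbered 0 to 10. Those clusters were built from expression in the same cells, so their differences are a description and no test. Shares were set against all other kept cells of the same batch where the cluster had 10 or more cells. Cluster 2 lay above the rest, by 0.31 on the log2 scale in GL53 and 0.32 in GL78, and cluster 3 by 0.22 and 0.18. Below it were cluster 4, at -0.59 in GL53 and -0.38 in GL78, and cluster 6, at -0.48 in GL53. The extremes were in GL78, where cluster 8 was at 0.63 and cluster 9 at -0.995. Over the batches, clusters 0, 1, 5 and 7 averaged -0.05, -0.17, 0.08 and -0.10, and cluster 10 had under 10 cells in each batch.

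**Figure D3:**
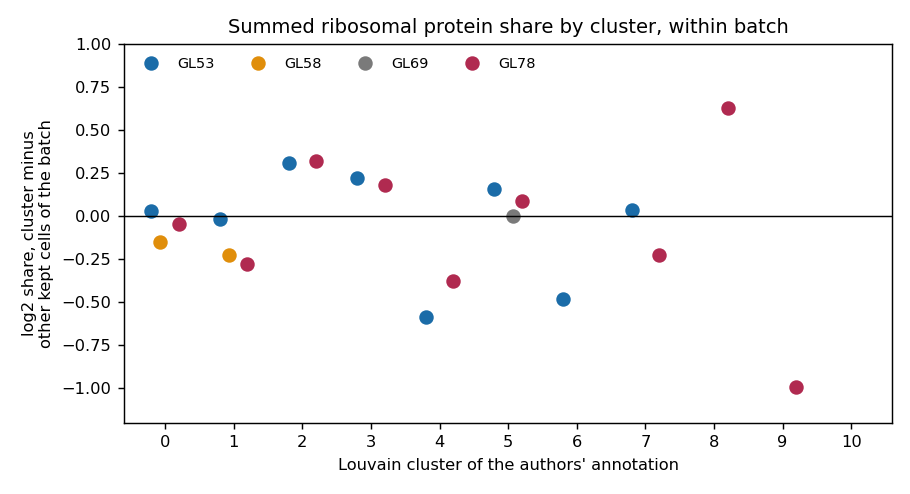
Log2 of the summed ribosomal protein share of each Louvain cluster minus that of all other kept cells of the same batch (y axis) by cluster number (x axis), with 1 point for each batch in which the cluster had 10 or more cells. Clusters 2, 3, 5 and 8 lie above 0 and clusters 1, 4, 6 and 9 below it in each batch shown. Cluster 5 in GL69 (0.001) and cluster 1 in GL53 (-0.016) are close to 0.

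Marker sums tell these clusters apart. In cluster 8, germ cell markers (Dppa3, Dnd1, Nanog, Pou5f1, Tfap2c) summed to 1951 CPM, against 0.355 to 26.4 CPM in the other clusters. Cluster 9 held megakaryocyte markers (Pf4, Gp5, Gp1bb, Tubb1, Gp9) at 27950 CPM and erythroid markers at 1696 CPM, cluster 6 mesenchymal markers at 4997 CPM and cluster 10 macrophage markers at 6039 CPM. Cluster 4 had arterial markers (Gja4, Gja5, Efnb2, Hey2, Sox17, Dll4) at 5201 CPM, against 231.8 CPM in cluster 2. Cluster 2 had haematopoietic markers at 664 CPM beside endothelial markers at 690 CPM, where cluster 4 had 48.9 and 6392 CPM.

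Cells at the edges of the range followed the clusters and, at the upper edge, the batch. Only 7 cells had a share under 2%, of which 4 were cluster 9 cells of HE at E10.5 in GL78, at 0.978, 1.04, 1.11 and 1.13%. Those 4 cells were not shallow, with 655037 to 1004977 counts each, but they had 3092 to 4838 detected genes, against a median of 7854 in their group and batch. Above 12% were 18 cells, 10 from cluster 8, 5 from cluster 2 and 3 from cluster 3. All 18 were from GL78. The highest share of any kept cell was 7.45% in GL53, 8.14% in GL58 and 9.965% in GL69.

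Cluster 2 and cluster 4, the highest and the lowest of the clusters with 10 or more cells in both GL53 and GL78, were also compared directly. The genes took 5.13% of counts in cluster 2 and 2.90% in cluster 4 in GL53 (28 and 33 cells), and 10.2% and 6.72% in GL78 (68 and 38 cells). The summed log2 ratio was 0.82 and 0.60, a mean of 0.71 ± 0.16 (n = 2 batches), or 1.64-fold, and 0.71 over the 13 genes with little shared sequence. All of the 76 genes that passed the filter were above 0 in both batches, with a median of 0.73, beside 0.15 over all 10554 genes. Higher in cluster 2 past the limit were 73 of the 76 (30.8% of all genes) and 0 were lower (23.9% of all genes). The 2 clusters stand at the ends of the summed share of these same genes. These counts therefore follow in part from that and are a description.

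The highest ratios were those of Rpl12 and Rps12. Rpl12 had 426.7 CPM in cluster 2 (exact Poisson interval 417.1 to 436.5) and 154.2 CPM in cluster 4 (148.9 to 159.6) in GL53, and 936 and 421 CPM in GL78, a log2 ratio of 1.31 ± 0.22. Rps12 had 1040 and 506 CPM in GL78, and its log2 ratio was 1.43 in GL53 and 1.04 in GL78, a mean of 1.23 ± 0.28. High as well were the stalk protein Rplp1 (1.19 ± 0.31) and Rpsa, a small-subunit protein also known as a laminin receptor (1.12 ± 0.33). The other stalk genes Rplp2 (0.97 ± 0.39) and Rplp0 (0.96 ± 0.36) lay near them. Of the genes known from Diamond-Blackfan anaemia, Rps19 was at 0.68 ± 0.24, Rpl5 at 0.59 ± 0.01 and Rpl11 at 0.50 ± 0.02. Rps14, whose loss belongs to the 5q- syndrome, was at 0.53 ± 0.17. Genes with related roles outside the symbol rule lay in the same range, with Rack1 at 0.87 ± 0.22, Rps3a1 at 0.61 ± 0.16, Rpl36al at 0.62 ± 0.25, Rpl7l1 at 0.83 ± 0.20 and Fau at 0.56 ± 0.18.

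The 3 genes that did not pass the limit were Rps27, Rpl10 and Rpl26. Rps27 (GRCm38 chr3:90212522-90213651, minus strand, 4 exons) had 771 CPM in cluster 2 (758 to 784) and 713 CPM in cluster 4 (701 to 724) in GL53, and 1392 and 1359 CPM in GL78, a log2 ratio of 0.07 ± 0.06. It took 2.46 and 2.02% of the counts of the 80 genes in cluster 4, in GL53 and GL78, but 1.503 and 1.37% in cluster 2. Rps27rt, the retrogene with nearly the same sequence, had 26.4 and 24.2 CPM in cluster 4 and 33.8 and 27.6 CPM in cluster 2. Because of the shared sequence, reads of Rps27 and Rps27rt cannot be separated with certainty. The sum of both was 805 and 739 CPM in GL53, and 1420 and 1383 CPM in GL78. Rps27rt adds little to that sum, and any reads left out for matching several genes are missing from it. It therefore cannot show what shared reads did to the ratio. Rpl10, which sits near the peptidyl transferase centre, was at 0.26 ± 0.09, and Rpl26 at 0.27 ± 0.02. Rps6, the target of S6 kinase, was at 0.39 ± 0.05, and Rpl7 at 0.46 ± 0.04.

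**Figure D4:**
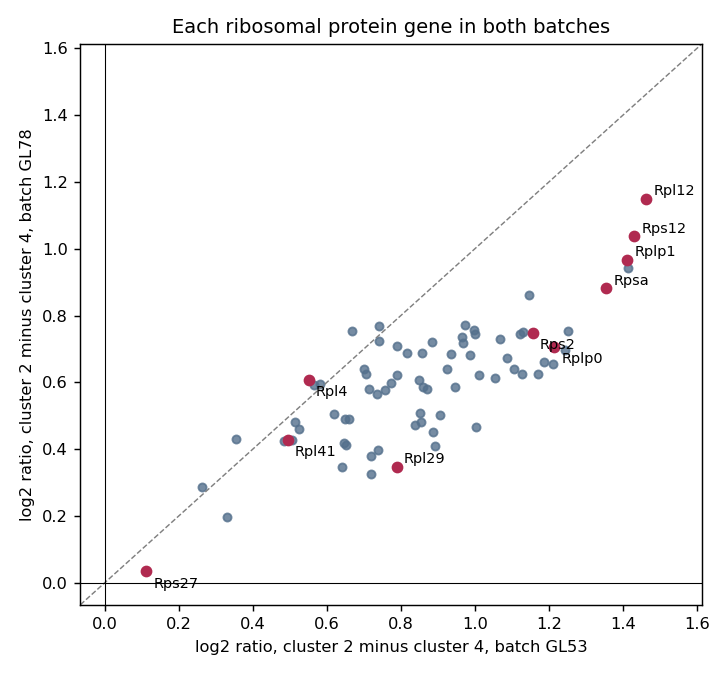
Log2 ratio of CPM in cluster 2 over cluster 4 for each gene in batch GL53 (x axis) against batch GL78 (y axis), with the dashed line marking equal ratios and names beside the red points. All 76 genes lie above 0 on both axes, with Rpl12 at the upper right (1.46 and 1.15) and Rps27 at the lower left (0.11 and 0.03).

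Genes that build or serve the ribosome were read from lists chosen for their roles. The 30 ribosome biogenesis genes, which make the ribosomal RNA and assemble subunits, had a median log2 ratio of 1.42 in cluster 2 over cluster 4, beside 0.73 for the ribosomal protein genes. Of the 30, 28 were higher past the limit (30.8% of all genes were, and 23.9% were lower), led by Polr1b, a subunit of RNA polymerase I (3.00), and Rrp9 (2.49). Among 18 genes listed for their 5′ TOP messages the median was 0.49 and 11 were higher. The 18 ran from Nap1l1 (1.31) and Pabpc1 (1.23) down to Tpt1 (-0.04). Translation factors of a separate list had a median of 0.68 (12 of 17 higher) and 40 mitochondrial ribosomal proteins one of 0.63 (23 higher). The 15 mTOR and Myc regulators had a median of 0.43, with 8 higher and 1 lower. At the ends of that list were Mycn (2.96) and Myc (2.36), which drive ribosome production, and Mxd4, a MYC antagonist (-1.06). Of the 12 p53 targets, 4 were higher, near the share over all genes, and 5 lower, with Cdkn1a at 5.02 and Plk2 at -2.18. In HE minus GFI1+ IAHC the biogenesis list had a median of -0.30 at E11.5, beside -0.08 over all genes, but only 2 of 30 were lower past the limit, near the 5.95% of all genes. At E10.5 its median was -0.59, beside -0.02, with 21 of 30 lower against 20.4% of all genes. From E10.5 to E11.5 it had a median of -0.31 in HE (8 of 30 lower, against 12.1% of all genes) and -0.48 in GFI1+ IAHC (20 of 30 lower, against 20.9%). In GFI1+ over GFI1- IAHC it was at 0.12, with 4 of 30 higher against 5.42%.

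Cell cycle phase gave no common direction. G2M was compared with G1, by the phases in the authors' annotation, in the 9 sets of 1 group in 1 batch with 10 or more cells of each. The mean log2 ratio was -0.01 ± 0.16, and -0.03 over the 13 genes with little shared sequence, and 0 of 76 genes passed the limit as higher (2.06% of all genes) or lower (0.41% of all genes) in all 9. The 3 sets of HE were above 0, at 0.31 (E10.5, GL78), 0.14 (E11.5, GL53) and 0.09 (E11.5, GL78). The 6 sets of IAHC were below 0, at -0.07 (E10.5 GFI1+, GL78), -0.08, -0.20 and -0.10 (E11.5 GFI1+, GL53, GL58 and GL78) and -0.14 and -0.02 (E11.5 GFI1-, GL53 and GL78). Cluster 4 moved with phase in HE: it held 46.2, 41.9 and 21.7% of the G1 cells of these 3 sets and 17.5, 3.33 and 12.5% of the G2M cells. Without cluster 4 alone the HE values were 0.37, -0.05 and 0.09, and without clusters 6 to 10 alone they were 0.16, 0.14 and 0.14. Without clusters 4 and 6 to 10 they were 0.08, -0.05 and 0.15. S phase over G1 could be read in 3 sets, all above 0, at 0.22, 0.04 and 0.09. Among single genes, Rps27 alone was below 0 in all 9 sets, with a mean of -0.27 ± 0.15. Rpl7a (0.13 ± 0.17) and Rpl18 (0.13 ± 0.23) were above the median of the genes in all 9 sets and Rpl13a (-0.11 ± 0.16) below it.

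Paralogs that other tissues use had few reads outside cluster 8. Rpl39l (GRCm38 chr16:10170226-10174911, plus strand, 3 exons) and Rpl10l (chr12:66283379-66284401, minus strand, 1 exon) are copies of the X-linked genes Rpl39 (chrX:37082520-37085402, minus strand) and Rpl10 (chrX:74270812-74273135, plus strand) and are best known from male germ cells. The coding sequences of Rpl39 and Rpl39l, from GENCODE M21 transcripts without the stop codon, are shown because the bases that differ are what lets reads of the 2 genes be told apart. Capitals mark the bases that differ.
Rpl39: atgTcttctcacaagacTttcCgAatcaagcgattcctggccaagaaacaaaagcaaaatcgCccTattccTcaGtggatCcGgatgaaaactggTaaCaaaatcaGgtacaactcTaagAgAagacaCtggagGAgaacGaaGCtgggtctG
Rpl39l: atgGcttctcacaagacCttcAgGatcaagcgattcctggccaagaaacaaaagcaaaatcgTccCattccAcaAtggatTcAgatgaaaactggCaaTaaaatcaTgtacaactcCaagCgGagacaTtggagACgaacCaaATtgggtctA
They were 85% identical, with 23 differing bases and no identical run longer than 38 bases, shorter than a read of 75. No 75-base stretch of the Rpl39l transcript occurred in another gene.

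Rpl39l stood at 243.8 CPM in the summed counts of the 25 cells of cluster 8 and at 0.855 CPM in the other 750 cells. It had reads in 22 of the 25 cells (88%, exact binomial interval 68.78 to 97.45%) and in 11 of the 750 (1.47%), and cluster 8 held 89.6% of its counts. Cell values in cluster 8 ran from 0 to 806 CPM with a median of 284.4. Rpl10l had 54.8 CPM in cluster 8 and 0.055 CPM elsewhere, with reads in 17 of 25 cells (68%, 46.5 to 85.1%) and in 1 of 750, and 96.8% of its counts were in cluster 8. Rpl3l, the heart and skeletal muscle copy of Rpl3, had reads in 2 of 25 and 5 of 750 cells. The parent genes were not lower there. Rpl39 was at 466.6 CPM in cluster 8, 1.845 times its level elsewhere, Rpl10 at 1376 and 1187 CPM, and Rpl3 at 1357 and 1068 CPM.

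Copies used more widely differed less. Rps27l, a p53-responsive copy of Rps27, had reads in 25 of 25 and 742 of 750 cells, at 703.5 CPM in cluster 8, 2.23 times its level elsewhere. Rpl22l1 was at 114.6 CPM, 1.11 times its level elsewhere, and its partner Rpl22 at 462.8 and 295.8 CPM. Rps4l, which the annotation lists as a pseudogene and which lies outside the symbol rule, was at 1500 CPM in cluster 8 and 125.1 CPM elsewhere, 11.99-fold, and its partner Rps4x at 1816 and 1203 CPM. These ratios set all batches together.

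In GFI1+ IAHC, Rpl39l had most of its counts in cells of cluster 8. In GFI1+ IAHC at E11.5 it had 7.63, 75.3 and 20.6 CPM in GL53, GL58 and GL78, and without cluster 8 it had 0, 0 and 2.65 CPM. HE at E11.5 had 1.19, 0 and 0 CPM and held no cell of cluster 8. On these values Rpl39l was counted among the 2 genes lower in HE at E11.5, where the limit was passed against libraries at 0 only through the added 1 CPM and no fold is given. It was also counted among those higher in GFI1+ IAHC than in GFI1- IAHC (7.63 against 4.15 CPM in GL53 and 20.6 against 1.81 CPM in GL78, but 0 against 0.791 and 2.65 against 1.81 CPM without cluster 8). The same held for E11.5 over E10.5 in GFI1+ IAHC of GL78, at 20.6 against 4.91 CPM, and 2.65 against 0.5925 CPM without cluster 8. Cluster 8 held 5 cells of that group and batch at each stage. All of the Rpl10l counts of GFI1+ IAHC and HE came from cluster 8 as well.

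**Figure D5:**
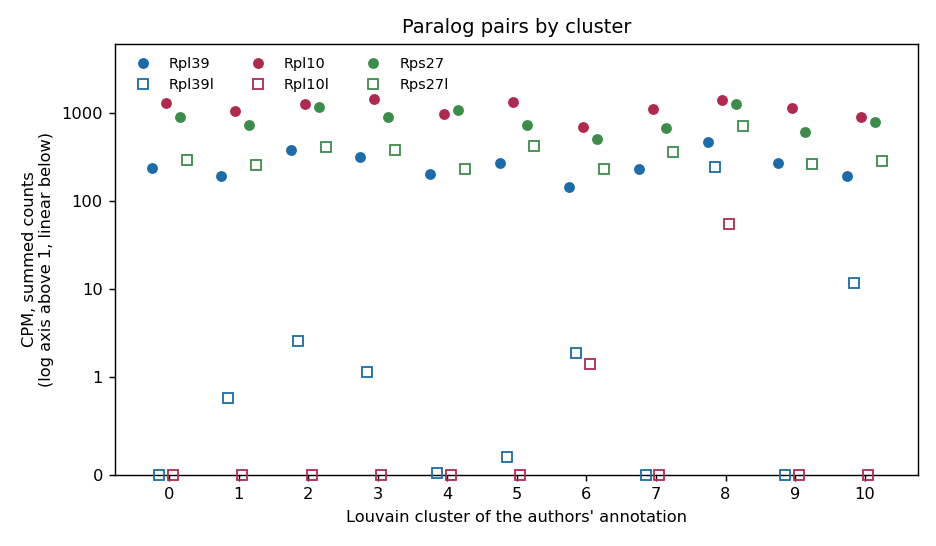
CPM in the summed counts of each Louvain cluster (y axis, logarithmic above 1 and linear below) for the gene pairs Rpl39 and Rpl39l, Rpl10 and Rpl10l, and Rps27 and Rps27l (x axis, cluster number), with filled circles for the parent gene and open squares for the copy. Rpl39l reaches 243.8 CPM and Rpl10l 54.8 CPM in cluster 8, while Rps27l lies between 229.6 and 421.6 CPM in the other clusters.

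From cell to cell the genes moved together. Over the 772 cells of the 12 sets, centred within each set, a gene's log CPM had a median Pearson r of 0.74 with the summed other members, and 75 of the 80 were above 0.5. Rpl32 was highest at 0.89 and Rpl3l lowest at 0.06. The genes of a cell share its library and depth, and the summed share itself had an r of 0.20 with log2 counts per cell, 0.30 with genes detected and -0.14 with the mitochondrial percentage. Among 2138 other genes at 100 CPM or more (median r 0.11), the closest were Rps3a1, which encodes a small-subunit protein under a symbol outside the rule (0.79), Npm1, the nucleolar chaperone (0.76), Rack1, a scaffold on the small subunit (0.73), Fau, which encodes another small-subunit protein fused to a ubiquitin-like one (0.72), Naca (0.67) and Snrpg (0.65). Of the 10 closest, Gm15772, Gm8730, Gm9625 and Gm10076 shared 46.5 to 84.8% of their 31-base stretches with Rpl26, Rplp0, Rplp0 and Rpl41, so reads of these pairs cannot be told apart with certainty. At the other end, Malat1, a nuclear non-coding RNA, was at -0.41.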

How the data were processed

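Single cells were sorted into plates and sequenced by a modified Smart-Seq2 protocol with paired reads of 75 bases, which carries no molecular identifiers. The authors aligned reads to mm10 with STAR 2.7.3 and deposited raw read counts per gene from HTSeq 0.9.1. The strand setting and the handling of reads with several matches are not given in the sources used here. In addition, the deposited cell annotation gave the clusters, phases, batches and mitochondrial fraction and marked the 775 cells the authors kept. Doublets were not called here.

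Counts were summed per group and batch, without 92 spike-in rows (0 counts), and scaled to CPM. Log2 ratios were taken within batches of 10 or more cells per group (pseudocount 1 CPM, minimum 10 CPM) and averaged. GENCODE M21 (GRCm38) named 45229 of 46078 gene identifiers, and the rest took 0.0575% of counts. Intervals are 95% exact Poisson or Clopper-Pearson. The tools were Python 3.11.15, numpy 2.4.6, pandas 2.3.3, scipy 1.17.1, matplotlib 3.10.9 and edgeR 4.0.16 (TMM factors only, as an alternative). The procedure was tested on simulated data with counting error only, so that test does not cover the spread between cells.

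Genes named were the 5 highest and 5 lowest deviations from the median of the ribosomal protein genes in each comparison with 1 sign in every batch, the 5 highest and lowest levels per kilobase, and the paralog pairs, stalk and anaemia genes whatever their values. Genes named for the batch ratio, the shared sequence or the start windows were chosen after their values were seen. The ribosomal protein genes and the other lists were chosen with earlier results of these data known. Some genes that this rule names are not reported here.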

Additional observations from a re-analysis of the deposited data

Results flagged for a closer look

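The ratio of G2M over G1 had opposite signs in the populations, in the sets with 10 or more cells of each phase. The mean log2 difference between HE (3 sets, all above 0) and GFI1+ IAHC (4 sets, all below 0) was 0.29, and that between HE and GFI1- IAHC (2 sets, both below 0) was 0.26. They drew attention because every compared set of one population moved one way and every compared set of the other the opposite way. The difference was not tested. Smaller sets were left out. Among them, HE of GL58 had shares in G2M and G1 of 4.17 and 4.21% at E11.5 (10 and 6 cells) and 5.365 and 4.96% at E10.5 (14 and 3 cells). GFI1+ IAHC of E10.5 in GL69 had 7.07 and 6.66% (17 and 3 cells). The E11.5 HE set and the GFI1+ IAHC set thus ran against the pattern. Without clusters 4 and 6 to 10 the HE set of E11.5 in GL53 was at -0.05, so the HE sets were then no longer all above 0.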

How the results depend on the processing

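HE minus GFI1+ IAHC at E11.5 (A, -0.16) and E10.5 (B, -0.18), GFI1+ minus GFI1- IAHC (C, 0.28) and E11.5 minus E10.5 in HE (D, -0.23) and GFI1+ IAHC (E, -0.22) kept their direction in every alternative run. Values that moved past the spread between batches (for the single-batch comparisons, past counting error) were as follows. With edgeR TMM factors A to E were -0.11, -0.18, 0.37, -0.25 and -0.30. In G1 cells alone A, B, D and E were -0.26, -0.40, -0.11 and -0.23. Without clusters 6 to 10 A, B, C and E were -0.11, -0.10, 0.20 and -0.18. With left-out cells C, D and E were 0.36, -0.24 and -0.21. The denominator without these and mitochondrial genes gave -0.20, -0.24 and -0.24 for B, D and E, the mean of per-cell CPM -0.19, -0.24 and -0.21, and thinning to 50000 counts per cell -0.20, -0.24 and -0.21. Adding pseudogene counts gave -0.24 and -0.23 for D and E. Chosen after seeing the data were the following. Without cluster 8 A, B, D and E were -0.11, -0.17, -0.22 and -0.20, and without cluster 4 -0.092, -0.12, -0.24 and -0.23. Without cluster 9 B and D were -0.12 and -0.24. Without cluster 2 B, D and E were -0.12, -0.25 and -0.18, and over genes with little shared sequence -0.21, -0.19 and -0.23. Causes were not tested. Cluster 2 minus 4 did not move. G2M minus G1 (-0.01) changed sign to 0.051 with TMM factors and 0.0067 without clusters 6 to 10, and lay between -0.068 and 0.017 with 1 batch left out (0.0034 without GL53, 0.017 without GL58, -0.068 without GL78). With TMM factors, 45 rather than 13 genes were higher in GFI1+ than GFI1- IAHC, 38 rather than 24 were lower at E11.5 in GFI1+ IAHC, and 1 rather than 2 was lower in HE at E11.5, without Rpl12. With a minimum of 1 CPM, 1 gene was higher and 2 lower in HE at E10.5. With 1 batch left out, A ran from -0.19 to -0.15, C from 0.23 to 0.33, D from -0.23 to -0.23 and cluster 2 minus 4 from 0.60 to 0.82. No paired analysis was possible because the results come from no test, and the ratios were already taken within batches. Depth limits chiefly Rpl3l, Rpl10l and Rpl39l, which had few reads outside cluster 8.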

Other observations

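Cells that the authors did not keep were outside the comparisons. In GL53, the 35 left-out GFI1- IAHC cells of E11.5 had a ribosomal protein share of 2.08%, against 3.70% in the 91 kept cells, with a median of 177800 against 554400 counts per cell. The 15 left-out HE cells of the same batch had 4.49% against 4.10%, and the 9 left-out GFI1+ IAHC cells 4.29% against 4.66%. In GL78 the 11 left-out GFI1- IAHC cells had 2.699% against 7.09%.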
